A study of Mus musculus with 7 samples.

Results

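Transcript levels of 9 oocyte-enriched genes from 3 small families were examined in mouse oocytes, the oocyte-secreted protein genes Oosp1, Oosp2 and Oosp3, the oocyte maturation genes Omt2a and Omt2b, and the 2′-5′ oligoadenylate synthetase genes Oas1c, Oas1d, Oas1e and Oas1h. The genes were found by their symbols among the 25912 entries that every library lists, and all 9 were among the 9202 entries tested, which averaged 1 FPKM or more over the means of the 3 groups (FPKM, a read count scaled to transcript length and library size). Omt2b was selected on its rise from GV to MII, so its levels are described with no test, and it is left out of every count of genes that passed a test, which leaves 8 genes. The families were chosen with earlier results of these data known.

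The libraries were made by Smart-seq2 from 10 pooled oocytes each. There were 2 libraries of GV oocytes (fully grown oocytes arrested at the germinal vesicle stage), 3 of oocytes matured to metaphase II (MII) in medium that held DMSO alone, and 2 of MII oocytes given BYBX, a fluorescent ligand that stabilizes RNA G-quadruplexes (rG4s, folds formed by runs of G). Per the methods of the study, the mice had a C57BL/6 background, and the females were 4 weeks old and were primed with PMSG 44 h before the GV oocytes were taken. The MII stage was reached after 16 h in M16 medium. The sample labels list no treatment for GV, whereas the methods name DMSO for control GV oocytes, and they name no allele for any group. The methods do not state the dose of BYBX for these libraries, and 1 μM is named where the study sets them beside ribosome profiling. The paper reports that BYBX lowered the rate of polar body release with rising dose. It also reports abnormal spindles in treated oocytes that did reach MII. How many of the oocytes in the treated libraries had released a polar body is not given in the sources used here. The part of impaired maturation in the levels with BYBX was not tested. Nothing says that the libraries of a group came from separate animals or cultures, so the p-values measure only the spread between these libraries. The comparison of MII with GV asks how the transcripts change during maturation. That of BYBX with DMSO asks how they differ after treatment with this ligand, which also impairs maturation.

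The OAS enzymes are sensors of double-stranded RNA. When bound to it they make 2′-5′ linked oligoadenylates, a signal of the antiviral response to interferon. The mouse Oas1 locus holds many tandem copies, several of which are expressed in oocytes, and the protein of Oas1d lacks synthetase activity and can reduce that of OAS1A. The OOSP proteins are small secreted proteins of the oocyte, and Omt2a and Omt2b were named for transcripts of maturing oocytes. A fully grown oocyte makes little new RNA until after fertilization, so during maturation the level of a transcript in oligo-dT primed libraries follows its degradation and the length of its poly(A) tail. Tail length is controlled in part by cytoplasmic polyadenylation elements near the polyadenylation signal of the 3′ end.

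Each family is a tandem group in the genome (GENCODE M21 on GRCm38, which is mm10). Oosp2 (chr19:11647279-11660559, minus strand), Oosp1 (chr19:11667460-11691150, minus strand) and Oosp3 (chr19:11697055-11711874, plus strand) lie within 64.6 kb. Omt2a (chr9:78311972-78314796, minus strand) and Omt2b (chr9:78327589-78329620, plus strand) are 12.8 kb apart. The Oas1 genes span 135.4 kb, with Oas1e at chr5:120786226-120795530 and Oas1c at chr5:120800194-120812514 on the minus strand, and Oas1h at chr5:120861421-120873506 and Oas1d at chr5:120914536-120921652 on the plus strand.

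The 3′ ends are shown first, because the level that oligo-dT priming measures depends on them. For each gene the principal GENCODE transcript was used, and the last AATAAA or ATTAAA of its final 100 bases is printed as the end of a site of 30 bases, on the transcript strand and written as DNA. Capitals mark that signal and any TTTTAT or TTTTAAT, the core letters of a cytoplasmic polyadenylation element, within the 30 bases.
Oosp1: taattgtataaaatctgattaaagAATAAA
Oosp2: gatcttattcctatacatcaatgaAATAAA
Oosp3: cctttactgtaaccacaacctataAATAAA
Omt2a: tggggttttaacggTTTTATaataAATAAA
Omt2b: tggggttttaacggTTTTATaataAATAAA
Oas1c: tgagggtgagatttgaagcactgaATTAAA
Oas1h: tgaggatgaaatttgaagcactgaATTAAA
Oas1d: ctaaattaaagcaaaacgcattgaATTAAA
Oas1e: ctgaattaaatcaaaatgcattgaATTAAA

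These sites lie in the 3′ UTRs, at chr19:11667547-11667576 (Oosp1), chr19:11647300-11647329 (Oosp2), chr19:11711816-11711845 (Oosp3), chr9:78312018-78312047 (Omt2a), chr9:78329553-78329582 (Omt2b), chr5:120800221-120800250 (Oas1c), chr5:120873457-120873486 (Oas1h), chr5:120921619-120921648 (Oas1d) and chr5:120786319-120786348 (Oas1e). The signal ended 87 bases before the annotated transcript end in Oosp1 and 93 in Oas1e, and 4 to 38 bases before it in the other members. Omt2a and Omt2b have the same 30 letters, in which TTTTAT stands just before a pair of AATAAA that overlap each other, and only the last AATAAA is in capitals. The sites of the 4 Oas1 genes all end in ATTAAA, and those of Oas1d and Oas1e hold an earlier ATTAAA in lower case. In the last 100 bases TTTTAT was found in Oosp3, Omt2a and Omt2b, each time at 2 places, and TTTTAAT in no member. Among 8739 tested symbols with a complete protein-coding transcript, 66.3% held AATAAA, 21.7% held ATTAAA and 20.2% held TTTTAT or TTTTAAT in the same window, in which only the transcript strand was searched. No member transcript held 4 G-runs (each of 3 or more G) separated by loops of 1 to 7 bases, a pattern used to predict rG4s, and 17.8% of the 8739 transcripts held it. A match is only a match of letters, and its absence says nothing of a factor or a fold.

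The copies within a family differ in how far their reads can be told apart, and the authors counted uniquely mapped reads only. Coding sequences of the Oosp genes were 63.5 to 66.0% identical over the aligned bases, and no 50-base window of their transcripts occurred in another gene. Among the Oas1 members the identity ran from 78.9% (Oas1c and Oas1h) to 90.9% (Oas1d and Oas1e), and 0.5% (Oas1h), 6.2% (Oas1d), 10.7% (Oas1c) and 11.3% (Oas1e) of the 50-base windows were shared with another gene. The Omt2 pair shares a run of 260 identical bases that reaches 143 bases past the stop codon. Of the 50-base windows, 29.5% in Omt2a and 51.5% in Omt2b were shared, so the levels of this pair are less certain than those of the other members. Oas1d lies within the annotated pseudogene Gm7573, and the pseudogene Gm19224 lies within Oosp3, and reads of such overlapping genes could not be told apart by strand, since Smart-seq2 does not keep it. Upstream the pair is different, as the first 120 bases of the longest block of the coding sequences aligned without gaps show (coding bases 66 to 185 of Omt2a and 123 to 242 of Omt2b), with the 42 differing bases in capitals. In the rest of this block of 235 bases there was no difference.
Omt2a: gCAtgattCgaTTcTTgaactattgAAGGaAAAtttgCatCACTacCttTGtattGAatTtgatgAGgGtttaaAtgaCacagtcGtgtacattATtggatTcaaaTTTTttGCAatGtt
Omt2b: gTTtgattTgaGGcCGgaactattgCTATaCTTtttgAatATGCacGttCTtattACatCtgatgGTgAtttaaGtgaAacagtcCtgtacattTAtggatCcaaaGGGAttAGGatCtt

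The members spanned a wide range of levels. In GV oocytes Oas1e had the highest mean (1938 FPKM) and Omt2a the lowest (7.10 FPKM). The 9 genes together took 1.46% of all FPKM in each GV library, 2.42 to 3.15% in MII with DMSO and 1.86 to 1.96% in MII with BYBX. All are deposited on a scale that the authors set with an external spike-in, and on it the total fell from 402113 to 489569 FPKM in GV to 109732 to 127254 in MII with DMSO, with 201482 to 246710 in MII with BYBX. On log2(FPKM + 1) the median difference over the 9202 tested entries was -1.83 for MII with DMSO against GV, 0.84 for BYBX against DMSO and -0.99 for BYBX against GV. Each difference of a member is read against these medians. The medians depend on the value added before the log (the pseudocount). With 0.1 in place of 1 they were -2.53, 1.29 and -1.19. Fewer oocytes and less RNA per oocyte cannot be told apart in such libraries.

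The oocyte identity of the libraries was checked with marker genes. All 11 listed markers of oocytes exceeded 1 FPKM in GV and in MII with BYBX and 10 did so in every library, the exception being Figla in MII with DMSO, with sums of 12100 to 15200 FPKM in GV, 2010 to 2250 in MII with DMSO and 5940 to 6970 in MII with BYBX. Of 17 granulosa and cumulus markers 3 exceeded 1 FPKM in any library, with sums of 7.18 to 14 FPKM in GV, 2.15 to 2.36 in MII with DMSO and 3.05 to 3.48 in MII with BYBX, and Areg and Ptx3 were listed at 0 in every library. The 9 macrophage and leukocyte markers summed to 47.4 to 59 FPKM in GV, nearly all from C1qb, to 1.36 to 2.55 in MII with DMSO and to 6.72 to 7.81 in MII with BYBX, with Ptprc and Adgre1 listed at 0 in every library. The listed erythrocyte markers summed to at most 1.2 FPKM, with GV and MII with DMSO overlapping. The oocyte, granulosa and macrophage sums were highest in GV and lowest in MII with DMSO, and their part in the differences below was not tested.

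Between GV and MII with DMSO, 4 of the 8 counted members fell, namely Oosp2, Oas1c, Oas1e and Oas1h, none rose, and Oosp1, Oosp3, Omt2a and Oas1d did not pass the test (limma, Benjamini-Hochberg adjusted p under 0.05). Over all tested entries 88.3% were called lower and 0.272% higher, so the share of members that fell was below that of all entries. The median difference of the 8 members was -1.43, beside -1.83 over all entries. With BYBX against DMSO, Oosp2, Oas1c, Oas1e and Oas1h were higher (4 of 8), none was lower and 4 were not called. Over all entries 65.2% were called higher and 0.0326% lower. The member median was 0.76, beside 0.84 over all entries. It fell in a gap, with 4 members at 0.07 to 0.44 and 4 at 1.08 to 3.56. The median of all entries was 1.29 with a pseudocount of 0.1 and 1.07 with a filter at 5 FPKM. With BYBX against GV, Oosp2, Oas1c, Oas1e and Oas1h were lower, none was higher and 4 were not called. Over all entries 69.2% were lower and 0.315% higher, with medians of -0.79 for the members and -0.99 for all entries. These 3 comparisons share libraries and are not independent of each other.

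**Figure D1:**
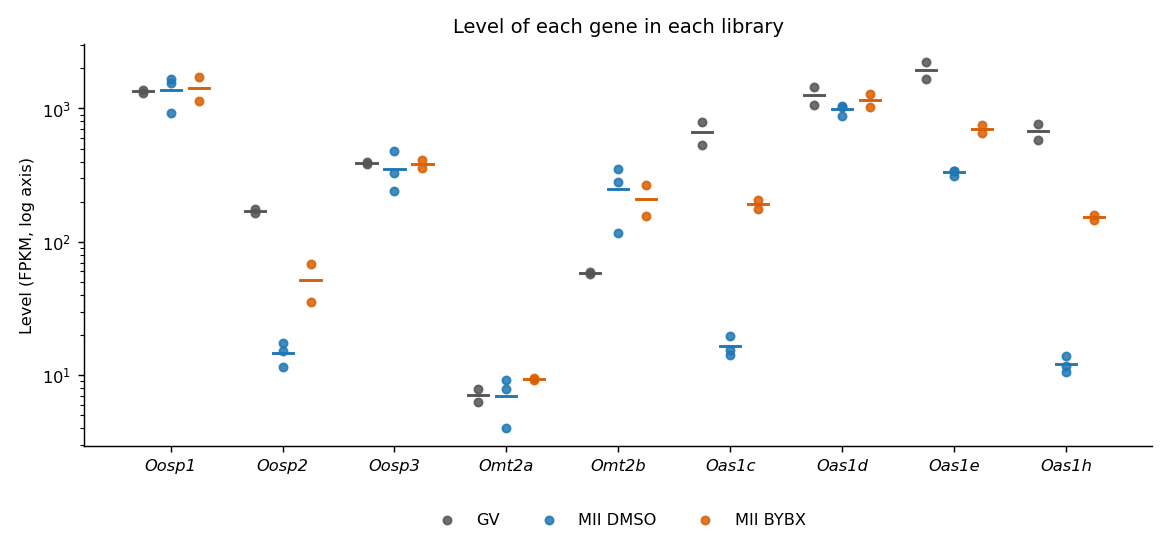
Level of the 9 genes in each of the 7 libraries (points, FPKM on a log axis) with the mean of each group (bars), for GV, MII with DMSO and MII with BYBX. Oas1c, Oas1h, Oosp2 and Oas1e are lowest in MII with DMSO and between the other groups with BYBX, Oosp1, Oosp3, Omt2a and Oas1d lie at like levels in the groups on this deposited scale, and Omt2b is higher in both MII groups.

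Oosp1 was the most abundant Oosp gene in every library. It had 1306 and 1381 FPKM in GV, 932, 1663 and 1541 in MII with DMSO, and 1734 and 1136 in MII with BYBX. The groups overlapped in every pair, and the order of their means (1343 ± 52.9, 1379 ± 391 and 1435 ± 423, SD, n = 2, 3 and 2) is within the spread of the libraries. The difference of MII with DMSO from GV was -0.01 (SE 0.28, 95% interval -0.61 to 0.6, adjusted p = 0.98 by limma), beside -1.83 for the median entry, and it became 1.88 when all libraries were set to the same total and 2.3 when they were centred on their medians. With BYBX it differed from DMSO by 0.07 (95% interval -0.53 to 0.67) and from GV by 0.06 (95% interval -0.6 to 0.72) on the deposited scale, and by -0.82 and 1.06 at the same total.

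Oosp2 fell with maturation. Its levels were 164 and 177 FPKM in GV, 11.4, 17.5 and 15.2 in MII with DMSO, and 68.5 and 35.2 in MII with BYBX. No library of one group reached the range of another, and the order was GV, BYBX and DMSO. Most tested entries were separated in the same way, with 92.49% having every DMSO library below GV. Likewise 79.02% had both BYBX libraries above DMSO, and 82.3% had them below GV. The mean in MII with DMSO was 11.6-fold lower than in GV (difference -3.46, SE 0.31, adjusted p = 1.1e-07), or -1.63 relative to the median entry. With BYBX it was 3.52-fold higher than with DMSO (difference 1.69, SE 0.31, adjusted p = 0.00029) and 3.29-fold lower than in GV (difference -1.77, SE 0.33, adjusted p = 0.00048). After median centring the fall from GV to MII with DMSO was -1.16 and remained called, whereas the differences of BYBX from DMSO (0.41) and from GV (-0.75) kept their direction and were not called, nor was that from GV at the same total (-0.79).

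Oosp3 had levels of 383 and 400 FPKM in GV, 330, 480 and 241 in MII with DMSO, and 355 and 408 in MII with BYBX. The groups overlapped in every pair, and MII with DMSO had the widest spread (mean 350 ± 121 FPKM, SD, n = 3). Its differences were -0.22 (95% interval -0.83 to 0.4) for MII with DMSO against GV, 0.18 (95% interval -0.44 to 0.79) for BYBX against DMSO and -0.04 (95% interval -0.71 to 0.63) for BYBX against GV, none of which passed the test. At the same total they turned to 1.67, -0.72 and 0.95. Oosp2 thus made up 8.84 and 9.04% of the summed Oosp level in GV, 0.811 to 0.898% in MII with DMSO, and 3.18 and 2.23% with BYBX, while Oosp1 took 70.5% in GV and 71.9 to 85.7% in the MII libraries.

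Omt2a was the least abundant member, with 7.94 and 6.26 FPKM in GV, 4.02, 9.14 and 7.82 in MII with DMSO, and 9.24 and 9.55 in MII with BYBX. Both BYBX libraries were above the others by a small margin, and GV and DMSO overlapped. Among tested entries 79.02% had both BYBX libraries above DMSO and 0.8476% had them above GV. None of its differences passed the test, which were -0.07 (95% interval -0.71 to 0.56) for MII with DMSO against GV, 0.44 (95% interval -0.19 to 1.08) for BYBX against DMSO and 0.37 (95% interval -0.33 to 1.06) for BYBX against GV. At the same total these were 1.57, -0.36 and 1.21.

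Omt2b, the gene selected on its rise, had 59.9 and 57.6 FPKM in GV, 117, 350.1 and 281 in MII with DMSO, and 266 and 156 in MII with BYBX. All MII libraries were above both GV libraries, and the DMSO and BYBX libraries overlapped, with MII DMSO library 1 the lowest of the MII libraries. The mean in MII with DMSO was 4.25 times that of GV (difference 1.93 on the log2 scale). With BYBX the mean was 3.59 times that of GV and 0.844 times that of DMSO, with differences of 1.78 and -0.15. The ratio of Omt2b to Omt2a was 7.54 and 9.2 in GV, 29.2, 38.3 and 35.9 in MII with DMSO, and 28.7 and 16.3 with BYBX. This ratio does not depend on the scale of a library, but it does depend on how the shared 3′ ends of the pair were counted.

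Oas1d passed no test on the deposited scale. It had 1452 and 1070 FPKM in GV, 884, 1033 and 1048 in MII with DMSO, and 1294 and 1022 in MII with BYBX. Every DMSO library was below both GV libraries, as in 92.49% of tested entries, and the BYBX libraries overlapped both other groups. The difference of MII with DMSO from GV was -0.34 (SE 0.23, 95% interval -0.84 to 0.16, adjusted p = 0.18), higher than in 93.9% of the tested entries, and it turned to 1.55 at the same total and to 1.97 after median centring. BYBX differed from DMSO by 0.22 (95% interval -0.28 to 0.72) and from GV by -0.12 (95% interval -0.67 to 0.43), and by -0.67 and 0.88 at the same total.

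Oas1e was the most abundant member in GV, with 2221 and 1655 FPKM there, 342, 311 and 340.1 in MII with DMSO, and 746 and 654 in MII with BYBX. The groups did not overlap, in the order GV, BYBX and DMSO, and most tested entries were separated in the same way in each comparison. The mean was 5.85-fold lower than GV in MII with DMSO (difference -2.53, SE 0.23, adjusted p = 1.5e-07) and 2.11-fold higher with BYBX than with DMSO (difference 1.08, SE 0.23, adjusted p = 0.0011). Against GV, BYBX was 2.77-fold lower (difference -1.46, SE 0.25, adjusted p = 0.00026). Relative to the median entry they were -0.7, 0.24 and -0.47. These distances depend on the pseudocount. With 0.1 in place of 1 the differences were -2.53, 1.08 and -1.46, beside medians of all entries of -2.53, 1.29 and -1.19. After median centring the 3 differences were -0.23, -0.2 and -0.43, none of them called. At the same total the fall from GV to MII with DMSO (-0.65) was called, and the differences of BYBX from DMSO (0.18, adjusted p = 0.38) and from GV (-0.46, adjusted p = 0.096) were not.

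Oas1c fell furthest after Oas1h. It had 793.5 and 536 FPKM in GV, 14.3, 15.4 and 19.8 in MII with DMSO, and 208 and 175 in MII with BYBX. No groups overlapped, and most tested entries were separated in the same way in each comparison. The mean in MII with DMSO was 2.48% of that in GV, a 40.3-fold fall (difference -5.23, SE 0.27, adjusted p = 8.1e-10), and only 2.89% of the tested entries fell further. With BYBX the mean was 11.6-fold higher than with DMSO (difference 3.47, SE 0.27, adjusted p = 2e-07) and 3.47-fold lower than in GV (difference -1.77, SE 0.29, adjusted p = 0.00021).

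Oas1h followed the same course. Its levels were 763 and 585 FPKM in GV, 14.0, 11.7 and 10.6 in MII with DMSO, and 147 and 159 in MII with BYBX. Again no groups overlapped, as in most tested entries for each comparison. The mean fell 55.8-fold to 1.79% of GV (difference -5.68, SE 0.25, adjusted p = 3.8e-10), and with BYBX it was 12.6-fold higher than with DMSO (difference 3.56, SE 0.25, adjusted p = 1e-07) and 4.42-fold lower than in GV (difference -2.12, SE 0.28, adjusted p = 6.9e-05). Oas1c and Oas1h kept direction and call in all 3 comparisons under every alternative run, but their size depended on the scale. For MII with DMSO against GV, Oas1c was at -3.39 at the same total and -2.93 after median centring, and Oas1h at -3.86 and -3.38. For BYBX against DMSO these were 2.62 and 2.19 (Oas1c) and 2.72 and 2.28 (Oas1h), and for BYBX against GV -0.78 and -0.74 (Oas1c) and -1.13 and -1.1 (Oas1h). The ratio of Oas1c to Oas1h was between 0.916 and 1.87 in the 7 libraries.

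**Figure D2:**
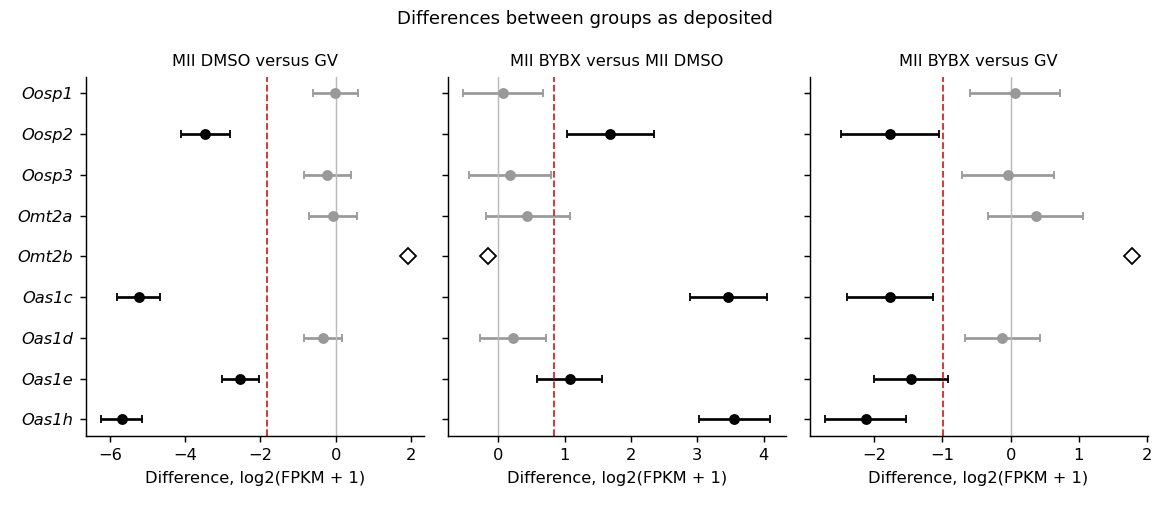
Difference of each gene between groups on log2(FPKM + 1), as deposited, with 95% intervals from limma (black, adjusted p under 0.05; grey, not), one panel per comparison, and the median of all 9202 tested entries as a dashed line. Omt2b (open diamond) was selected on its rise and has no interval; Oosp1, Oosp3, Omt2a and Oas1d lie near 0 on this scale, and Oas1c and Oas1h lie far below the median in MII with DMSO against GV and far above it in BYBX against DMSO.

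The make-up of the Oas1 family within a library does not depend on the scale of that library. The 4 genes summed to 5229 and 3846 FPKM in GV, 1254, 1371 and 1419 in MII with DMSO, and 2395 and 2009 in MII with BYBX. Of this sum Oas1d held 27.8% in both GV libraries, 70.5, 75.3 and 73.9% in MII with DMSO, and 54.1 and 50.9% with BYBX. The share of Oas1e went the other way, with 42.5 and 43.0% in GV, 22.7 to 27.3% in MII with DMSO and 31.2 and 32.5% with BYBX. Oas1c held 15.2 and 13.9% in GV, 1.13 to 1.39% in MII with DMSO, and 8.67 and 8.72% with BYBX, and Oas1h held 14.6 and 15.2%, 0.744 to 1.12%, and 6.12 and 7.89%. For each of the 4 genes the shares of the 3 groups did not overlap, and those with BYBX lay between the other groups. Shares of 1 sum move together, so these are not 4 separate results, and the level of Oas1d itself was not called. In FPKM, 92.49% of tested entries had every DMSO library below GV. Likewise 79.02% had both BYBX libraries above DMSO, and 82.3% had them below GV. The ratio of Oas1d to Oas1c was 1.83 and 2 in GV, 53.1 to 66.9 in MII with DMSO, and 6.23 and 5.83 with BYBX. Oas1d and Oas1e, whose coding sequences are 90.9% identical, differed in course. Their ratio (Oas1d to Oas1e) was 0.654 and 0.647 in GV, 2.58 to 3.32 in MII with DMSO, and 1.74 and 1.56 with BYBX. What set this difference was not tested.

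**Figure D3:**
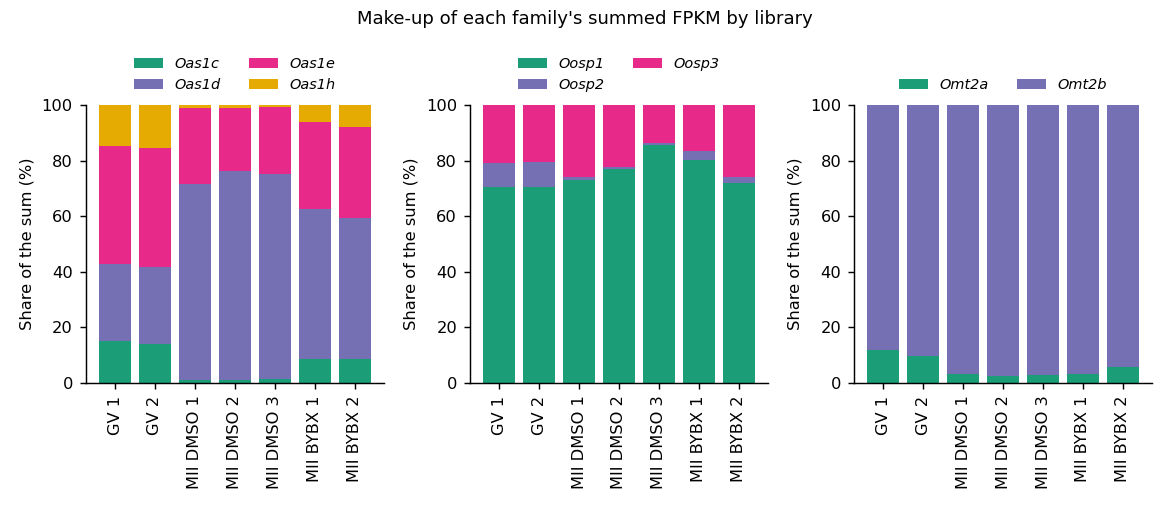
Share of each gene in the summed FPKM of its family in each library (stacked bars, percent), for the Oas1, Oosp and Omt2 families. Oas1d goes from 27.8% of the Oas1 sum in GV to 70.5 to 75.3% in MII with DMSO and 50.9 to 54.1% with BYBX, whereas Oosp1 stays the largest Oosp gene in every library.

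The rank of a gene by FPKM within its library is likewise free of the scale. Oosp1 stood at place 37 and 29 in GV, 12, 7 and 7 in MII with DMSO, and 9 and 15 with BYBX, and Oas1d at place 34 and 41, 12 or 13 in each DMSO library, and 16 and 18. Omt2b moved from 1626 and 1379 in GV to 117, 45 and 56 in MII with DMSO and 127 and 165 with BYBX, and Omt2a from 6069 and 6008 to 1828 to 2920 and to 3583 and 3214. Oas1c dropped from place 73 and 96 in GV to 1031 to 1237 in MII with DMSO and stood at 165 and 146 with BYBX. Oas1h dropped from 76 and 88 to 1237 to 1672 and stood at 248 and 164. Oosp2 was at 525 and 373 in GV, 1121 to 1437 in MII with DMSO, and 623 and 1041 with BYBX, and Oas1e at 14 and 19, 37 to 52, and 34 and 35.

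**Figure D4:**
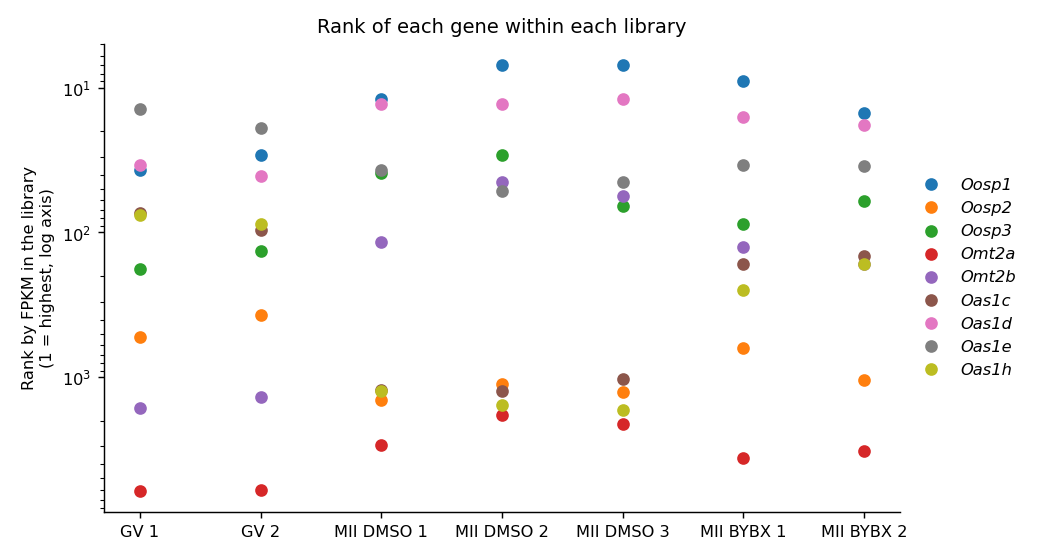
Rank of each of the 9 genes by FPKM within each library (1 is the highest, log axis), libraries on the horizontal axis. Oosp1 and Oas1d reach places 7 to 13 in MII with DMSO, where Oas1c, Oas1h and Oosp2 lie between places 1031 and 1672.

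Which members count as changed depends on the scale, except for Oas1c and Oas1h. The deposited scale refers to an external spike-in. The same total and median centring express a gene relative to the other transcripts of its library, so a rise on them is a relative one. When every library was given the same total FPKM, Oosp1, Oosp3, Omt2a and Oas1d were called higher in MII with DMSO than in GV (4 members, with Oosp2, Oas1c, Oas1e and Oas1h still lower), and Oosp1 and Oas1d were called lower with BYBX than with DMSO, where 3 members (Oosp2, Oas1c and Oas1h) were still higher. Over all entries 23.3% were then called higher and 49.5% lower in MII with DMSO against GV, 39.9% higher and 8.22% lower in BYBX against DMSO, and 5.3% higher and 13.3% lower in BYBX against GV. After centring on library medians the 4 members were again higher in MII with DMSO, by 1.97 to 2.3, and all 4 were lower with BYBX than with DMSO, with differences of -0.84 to -1.21. Against GV, BYBX was higher for Oosp1, Omt2a and Oas1d at the same total (3 members) and for Oosp3 too after centring (4 members). On both scales only Oas1c and Oas1h were still called lower with BYBX than in GV. After centring, Oas1e was no longer called in any comparison, and Oosp2 was called only in MII with DMSO against GV. On that scale 48.8% of all entries were called higher and 26.7% lower in MII with DMSO against GV, 18.4% and 43.9% in BYBX against DMSO, and 15.2% and 13.6% in BYBX against GV. The median of all entries under median centring was 0.47, -0.44 and 0.04 for the 3 comparisons, against -1.83, 0.84 and -0.99 as deposited.

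**Figure D5:**
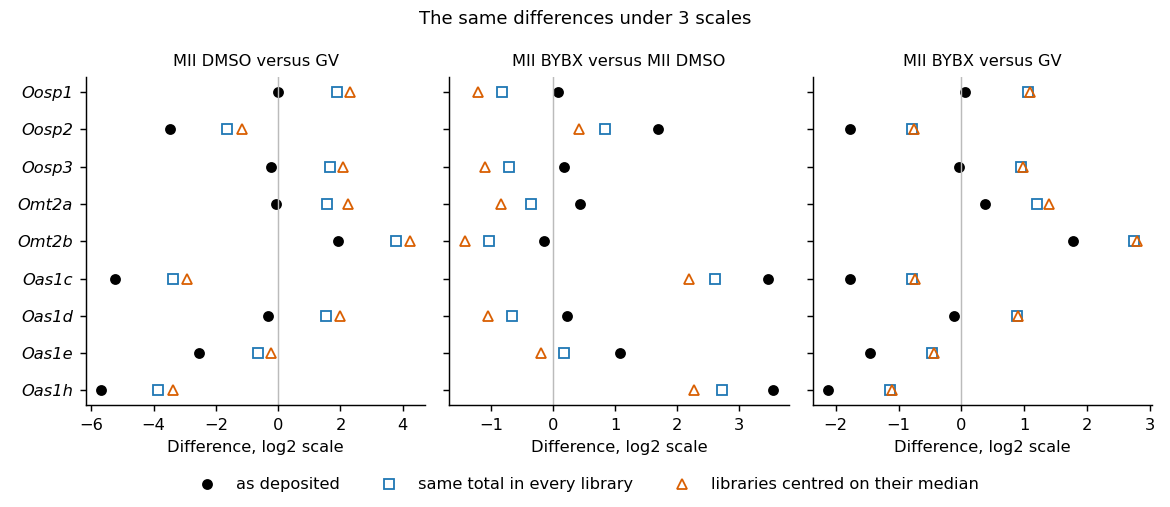
Difference of each gene between groups under 3 scales, the deposited FPKM (dots), the same total in every library (squares) and libraries centred on their median log2 value (triangles), one panel per comparison. Oas1c and Oas1h stay on the same side of 0 under each scale, and Oosp1, Oosp3, Omt2a and Oas1d move from near 0 to above 0 in MII with DMSO against GV.

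The rest of the OAS pathway was low in these oocytes. Of 41 genes listed for the OAS pathway and the interferon response, the members left out, 39 were listed in the tables and 15 reached the level for testing. Of these 14 were lower than GV in MII with DMSO, 12 were higher with BYBX than with DMSO and 12 were lower with BYBX than in GV, and none went the other way. Over all entries these calls were made for 88.3%, 65.2% and 69.2%. The median differences were -2, 0.73 and -1.15, beside -1.83, 0.84 and -0.99 over all entries. After median centring 3 were lower and 6 higher in the first comparison, beside 26.7% and 48.8% of all entries. No common direction is therefore read from the list. The tested genes with a mean of at least 10 FPKM were Bst2 (tetherin, which holds back budding viruses) and Jak1 (a kinase of the interferon receptors). Bst2 had 30.5 and 27.5 FPKM in GV, 11.6, 18.9 and 23.8 in MII with DMSO, and 35.2 and 13.4 with BYBX, and passed no test (differences of -0.71, 0.31 and -0.39). Jak1 had 33 and 24.9 FPKM in GV, 12, 11.8 and 11.2 in MII with DMSO and 19.5 and 16.7 with BYBX, and was called in each comparison (differences of -1.23, 0.59 and -0.64). Other genes of the OAS loci are outside the rule for named genes and were chosen after their values were seen. Oas1b, next to Oas1c, had 5.9 and 8.05 FPKM in GV, 0.977, 2.37 and 1.62 in MII with DMSO, and 3.92 and 2.2 with BYBX, with differences of -1.61 and -0.99 from GV that were called and of 0.61 between BYBX and DMSO that was not (adjusted p = 0.063). Oas1f, between Oas1c and Oas1h, had 21.4 and 19.5 FPKM in GV, 0.171 to 0.301 in MII with DMSO, and 11.9 and 4.94 with BYBX (differences of -4.14, 2.84 and -1.29, all called). Oas1a, Oas1g, Oas2, Oas3 and Oasl2 were under 1 FPKM in every library, and Isg15, Irf7, Ifit2, Ifit3 and Mx2, genes of the interferon response, were listed at 0 in every library.

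Genes next to the families were compared with the members. Within 100 kb there are 33 other genes, of which 20 were listed and 9 tested, and all 9 were lower than GV in MII with DMSO, 7 were higher with BYBX than with DMSO and 8 were lower with BYBX than in GV, with median differences of -3.44, 1.81 and -1.57. Over all entries these calls were made for 88.3%, 65.2% and 69.2%, with medians of -1.83, 0.84 and -0.99. Ooep, which encodes a protein of the subcortical maternal complex and lies 48.9 kb from Omt2b, had 1537 and 1684 FPKM in GV, 24.4, 43.8 and 48.4 in MII with DMSO, and 764 and 385 with BYBX (differences of -5.39, 3.83 and -1.57, adjusted p = 4.1e-09, 5.8e-07 and 0.0022). Dppa5a, 39 kb from Omt2b and coding for a KH-domain protein, had 285 and 296.5 FPKM in GV, 3.73, 4.12 and 9.87 in MII with DMSO, and 85.3 and 101 with BYBX. Both were lowest in MII with DMSO, and 92.49% of tested entries had every DMSO library below GV. Omt2b was above both GV libraries there, but it was selected on that rise. Its contrast with these neighbours was thus set by the selection. Near Oosp3, the mitochondrial ribosomal protein gene Mrpl16 had 84.2 and 82 FPKM in GV, 3.9, 4.85 and 5.27 in MII with DMSO, and 30.6 and 18.8 with BYBX, where Oosp3 did not pass the test.

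For each member the tested genes with the most similar course were found by the root mean square difference of log2(FPKM + 1) over the 7 libraries after each gene was centred on its own mean. Oosp1 was most like Hpf1 (0.05), followed by Atxn1l and Slc23a2, and Oas1d was most like Sipa1l2 and Accsl (0.038 each) and then Dusp14, where the median over all other genes was 0.85 and 0.67. Oosp2 was nearest to Rab27a (0.115), Polr2g and Dyrk1a, Oosp3 to Zc4h2 (0.142), Tex11 and LOC108168459, and Omt2a to Pcna (0.143), Pigf and Chst14. For Oas1c these were Abcf3 (0.104), Mrps17 and Hdgfl2, for Oas1h Fbxw21 (0.101), Gm6644 and Ddx39b, and for Oas1e Ccdc181 (0.066), Fbxo28 and Cnpy1. The measure is on log2(FPKM + 1), so it understates changes near the floor. Mean FPKM went from 46.9 in GV to 0.234 in MII with DMSO for Hdgfl2, and from 74.7 to 0.389 for Ddx39b. Their falls were thus larger than the measure shows. Omt2b had no near match, its closest genes being Snrpe (0.392), Smim11 (0.403) and Hamp (0.451). It was selected on its rise, and 0.3151% of tested entries had every DMSO library above GV. Few genes could thus share its course, and nothing is read from the lack of a match. Between members the smallest differences were those of Oosp1 with Omt2a (0.26), Oosp1 with Oas1d (0.27), Omt2a with Oas1d (0.3) and Oas1c with Oas1h (0.31).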

How the data were processed

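The authors removed adapters (Trim Galore 0.6.7), mapped the reads to mm10 with HISAT2 2.2.1 and computed FPKM per gene with Cufflinks 2.2.1 on UCSC gene models from uniquely mapped reads. They scaled the FPKM by an ERCC spike-in, scaled batches by their own GV samples, and deposited 1 table per library. The factors are not stated and no ERCC entries are listed, so the scale was taken as deposited. Whole reads cannot be recovered from these values, the depth is unknown, and the precision is that of 2 or 3 libraries per group. Of 25912 entries 4 with a missing value were left out.

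Differences were tested on log2(FPKM + 1), where 1 is the pseudocount, which understates the change of low genes, with limma 3.58.1 in R 4.3.3 (intensity trend, 7 libraries, 3 group means, 4 residual degrees of freedom) on 9202 entries with a mean of the 3 group means of at least 1 FPKM. The p-values were adjusted by Benjamini-Hochberg over all of them, and the threshold was 0.05. This step was tested on simulated data. The members and lists were chosen with earlier results of these data known. The genes named are the 9 members, the 3 tested entries nearest to each in course, and genes of the pathway and neighbour lists with a mean of at least 10 FPKM, and genes outside this rule are said to be so. Sequences were taken from GENCODE M21 and aligned with Biopython 1.88 in Python 3.11.15. The plots used matplotlib 3.10.9. Protein sequences were not used here. Alternatives tried were a filter at 5 FPKM or no filter, a pseudocount of 0.1, 2 other scales, fits of only 2 groups, a replicate block, no trend, a neighbour window of 50 kb, another set for ranks and leaving out each library. One gene of the pathway list is not reported here.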

Additional observations from a re-analysis of the deposited data

How the results depend on the processing

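The 24 tested differences of the 8 members kept their calls under a pseudocount of 0.1, both other filters, fits of only the 2 groups, no intensity trend, a replicate block and the removal of each library in turn, where a group left with 1 library is assumed to vary like the others. At the same total in every library 12 of the 24 stayed called or stayed not called, and after median centring 7 did. Of the 12 differences called as deposited, 9 (same total) and 7 (centring) stayed called with the same sign. The other calls were set by the scale, as were directions of differences not called as deposited. No factor to choose between the scales was given. They measure different things, as the deposited scale refers to a spike-in and the other 2 to the other transcripts of a library. Depth is unknown, so its limits cannot be stated.

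For MII with DMSO against GV, the same total gave 1.88 (Oosp1), 1.67 (Oosp3), 1.57 (Omt2a) and 1.55 (Oas1d), and median centring 2.3, 2.09, 2.23 and 1.97. For BYBX against DMSO they gave -0.82, -0.72, -0.36 and -0.67, and -1.21, -1.1, -0.84 and -1.06, with Oas1e at -0.2 after centring. For BYBX against GV, Oosp3 and Oas1d were at 0.95 and 0.88 at the same total, and at 0.99 and 0.91 after centring. Members called higher in MII with DMSO than in GV went from 0 to 4 on both scales, while the share over all entries went from 0.272% to 23.3% and 48.8%. Those lower with BYBX than with DMSO went from 0 to 2 (same total) and 4 (centring), with 0.0326%, 8.22% and 43.9% over all entries, those higher from 4 to 3 and 2, and against GV those lower went from 4 to 2 on both scales and those higher from 0 to 3 and 4.

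The pathway list had 8 lower and 3 higher (same total) and 3 lower and 6 higher (centring) in MII with DMSO against GV, 6 higher (same total) and 7 lower and 2 higher (centring) in BYBX against DMSO, and 3 lower (same total) and 1 lower and 1 higher (centring) in BYBX against GV. The shares over all entries on these scales are given in the results above. A filter at 5 FPKM, which tests fewer genes, left 5 lower, 3 higher and 3 lower, beside 87.9%, 66.9% and 68.6% of all entries. No filter gave 22 lower in the first comparison, beside 65%. After centring, 7 neighbours were lower and 2 higher in MII with DMSO than in GV, beside 26.7% and 48.8% of all entries. With BYBX against DMSO 0 were lower and 4 higher, beside 43.9% and 18.4%. Neighbours lower with BYBX than in GV numbered 3 at the same total (13.3% of all entries) and 3 after centring (13.6%). They numbered 5 with the filter at 5 FPKM (68.6%) and 13 with none (45.1%). Without a filter 17 were lower in MII with DMSO, beside 65% of all entries.

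Leaving out each library moved differences that were not called, or not tested, across 0. For MII with DMSO against GV they ran from -0.16 to 0.25 (Oosp1), -0.47 to 0.02 (Oosp3) and -0.28 to 0.23 (Omt2a). For BYBX against DMSO they ran from -0.23 to 0.38 (Oosp1), -0.06 to 0.43 (Oosp3) and -0.62 to 0.23 (Omt2b), and for BYBX against GV from -0.24 to 0.37 (Oosp1), -0.14 to 0.06 (Oosp3) and -0.34 to 0.1 (Oas1d).

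The labels number the libraries, but only 2 numbers are shared by all groups, and the deviations of same-numbered libraries correlated at 0.49 and 0.28 (MII with DMSO and GV), -0.6 and -0.35 (BYBX and DMSO) and -0.33 for both numbers (BYBX and GV), so the numbers were not taken to pair them. The replicate block changed no call of a member, and gave 0.02 and -0.06 for Oosp3 in MII with DMSO against GV and in BYBX against DMSO, and 0 for Omt2b in the latter. With the numbers of BYBX and GV crossed, a fit chosen after seeing the data, 4 members were again lower and 0 higher. Ranks among the tested entries only put every gene at a lower percentile than ranks among all entries over 0.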
